A study of Mus musculus with 2 samples.

Results

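Keratin genes were followed in sorted thymic epithelial cells with and without knockdown of Clp1. They were taken as every RefSeq transcript of the count table whose symbol is Krt and a number from 1 to 90, with keratin-associated proteins left out, which gave 53 of 23003 genes, each with a single transcript. Both libraries came from mTEChi, which are epithelial cells of the thymic medulla sorted for high MHC class II, of 1 lentigenic B6 mouse. The mouse was made with 2 lentiviral constructs, a doxycycline-inducible TRE3G promoter that drives shRNAs against Clp1 and the ZsGreen reporter, and a TetOn3G transactivator under the EF1 promoter. Its food held doxycycline (2 g per kg) over 2 weeks, starting when it was 3 weeks old. Cells with the reporter gave the Clp1_KD library (Clp1 knockdown, GFP positive) and cells without it gave the Ctr library (GFP negative), so drug, age and animal were shared and reporter expression differed. There was 1 library per group, no difference has a replicate check, and all intervals cover counting error only.

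Keratins are the intermediate filament proteins of epithelia. A type I and a type II keratin form the obligate building block of the filament, and characteristic pairs mark kinds of epithelium: KRT8 with KRT18 in simple epithelia, KRT5 with KRT14 in the basal layer of stratified epithelia, KRT1 with KRT10 in the layers above it in epidermis, KRT4 with KRT13 in the mucosa of mouth and oesophagus, and a set of hard keratins in hair and nail. Medullary thymic epithelial cells are known for KRT5 and KRT14, and also for the scattered expression of keratins of skin and hair as antigens of peripheral tissues. Clp1 is a subunit of the complex that cleaves and polyadenylates pre-mRNA 3' ends.

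Summed over all 30794 transcripts counted, the reads came to 28464803 (Ctr) and 37524730 (Clp1_KD). A read that lies in several transcripts of a gene can count more than once in these sums, and reads outside exons are not in them. With 1 transcript per gene the sums were 20108666 and 26734562. Clp1 had 1573 and 812 reads, so that Clp1_KD held 39.7% of the Ctr level after scaling, with a 95% interval of 36.4% to 43.2%. Counts were divided by a size factor per library, and these scaled reads, divided by transcript length where genes are set against each other, are the levels below. The log2 ratio is that of Clp1_KD over Ctr, followed by its exact 95% interval in parentheses. Genes were called 2-fold higher or lower where the libraries together held 10 reads or more, the fold reached 2 and the interval left out 0. Markers of mature mTEC summed to 664384 scaled reads in Ctr and 727818 in Clp1_KD over 9 genes, of which 1 was called higher and 1 lower. Most of these reads fell on Cd74 (230007 in Ctr and 391062 in Clp1_KD), H2-Ab1 (180054 and 228882) and H2-Aa (148783 and 167275). Both populations were sorted for high MHC class II, so the height of this sum does not show how alike their mature mTEC were. Markers of other cells were lower in Clp1_KD: 7 of 7 endothelial, 6 of 9 thymocyte, 6 of 8 fibroblast and mural, 6 of 8 cTEC (cortical epithelium), 4 of 4 red cell, 3 of 4 B cell and 4 of 6 dendritic cell and macrophage genes with 10 reads were called lower, and of all these 1 gene, of the last list, was called higher. Their summed scaled reads in Ctr and Clp1_KD were 16472 and 1168 for endothelium, 13891 and 4027 for thymocytes, 40976 and 23141 for cTEC and 62036 and 2072 for red cells. For fibroblast and mural genes they were 17899 and 6943, for B cell genes 1602 and 593 and for dendritic cell and macrophage genes 1910 and 1143. No marker with 10 reads was at 0 in either library.

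Sequences are shown here for some places in keratin genes, and no relation of promoter sequence to the calls was tested. The 7 type I hair keratins from Krt33a to Krt36 lie within 94.4 kb of chromosome 11 and were called in both directions. Krt33a and Krt35 had no promoter among those searched. The 80 bases upstream of the start of the other 5 are given (RefSeq, GRCm38.p6, minus strand, capitals mark TATAAA, a core promoter motif).
Krt33b at chr11:100029869-100029948: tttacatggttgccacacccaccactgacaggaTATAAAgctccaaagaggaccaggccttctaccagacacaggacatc
Krt34 at chr11:100041555-100041634: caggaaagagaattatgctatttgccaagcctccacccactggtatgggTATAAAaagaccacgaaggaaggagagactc
Krt31 at chr11:100050552-100050631: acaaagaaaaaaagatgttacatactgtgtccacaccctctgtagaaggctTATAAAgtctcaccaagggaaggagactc
Krt32 at chr11:100088270-100088349: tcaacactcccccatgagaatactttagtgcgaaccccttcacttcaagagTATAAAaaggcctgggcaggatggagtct
Krt36 at chr11:100105627-100105706: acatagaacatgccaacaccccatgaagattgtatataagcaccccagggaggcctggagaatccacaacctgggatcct

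The motif stood 29 to 47 bases before the start in Krt33b, Krt34, Krt31 and Krt32. These exact letters were not in the Krt36 window, which holds the similar tatataag, left unmarked. Over the whole 300 bases of each promoter, TATAAA on either strand was found in 19 of 37 keratin promoters (36 genes matched the table), or 51.4%, and in 13.6% of all 32851 promoters. The shorter ATAAA was searched on the gene's strand only, from 45 to 15 bases before the start. It was found in 20 of the 37 keratin promoters (54.1%) and in 4.83% of all. Krt33b was not among them, since its motif stood 47 bases before the start. The other motifs searched on both strands were TGANTCA, the AP-1 site, in 2 keratin promoters (5.41%, against 7.81% of all), and GCCNNNGGC, the AP-2 site, in 7 (18.9%, against 16.6%).

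Some keratins are near copies, and reads of 50 bases cannot always be assigned to them. Krt6a and Krt6b shared 766 of their 1829 and 1799 exonic windows of 50 bases. Krt33a shared 309 of its 1340 windows with Krt34, and Krt33b shared 232 of its 1238 with Krt34. The end of the longest identical stretch is given for Krt6a with Krt6b and for Krt33a with Krt33b. Both are on the minus strand of mm9, and capitals mark the base that differs.
Krt6a at chr15:101524347-101524406: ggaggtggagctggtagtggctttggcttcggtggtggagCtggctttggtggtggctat
Krt6b at chr15:101510322-101510381: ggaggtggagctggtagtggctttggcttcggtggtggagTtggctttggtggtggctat
Krt33a at chr11:99877273-99877332: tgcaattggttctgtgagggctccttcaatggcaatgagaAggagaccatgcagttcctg
Krt33b at chr11:99890951-99891010: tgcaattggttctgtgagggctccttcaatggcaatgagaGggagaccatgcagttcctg

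The identical stretch ran for 280 bases in Krt6a and Krt6b and for 114 bases in Krt33a and Krt33b. Of the 53 keratins, 22 had no window of 50 bases found elsewhere in the genome. Krt8 had 55.2% of its windows elsewhere, none of them in another keratin. The shares were 47.4% for Krt6b, 46.5% for Krt6a, 44.1% for Krt86, 41.1% for Krt81 and 38.6% for Krt16. They were 36.3% for Krt34, 32.1% for Krt87, 27.8% for Krt31, 27.1% for Krt33b, 26.3% for Krt33a, 23.8% for Krt83 and 18.1% for Krt14. How reads with several positions were counted was not given in the sources used here.

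Keratins together took 0.564% of the reads summed over all transcripts in Ctr (95% interval 0.561% to 0.567%) and 0.788% in Clp1_KD (0.785% to 0.791%). That sum can count a read more than once. With 1 transcript per gene in the denominator the shares were 0.798% and 1.11%. A small number of genes carried this share. Krt17, Krt8, Krt18, Krt5, Krt14 and Krt7 held 89.1% of the keratin reads in Ctr and 92.5% in Clp1_KD, and these 6 were also the keratins with the highest level per kb in both libraries, with Krt17 at the top. Summed over all keratins the log2 ratio was 0.50 (0.49 to 0.51), from 183046 to 259357 scaled reads. Over 14 epithelial genes that are no keratins, Epcam and Cdh1 among them, it was 0.51 (0.49 to 0.52), from 58956 to 83669 scaled reads. These genes were mixed, with a median log2 ratio of 0.25, 8 above 0 and 6 below. In bulk samples fewer cells of a type and less RNA per cell cannot be told apart, and the part that the share of other cells had in the keratin ratios was not tested.

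**Figure D1:**
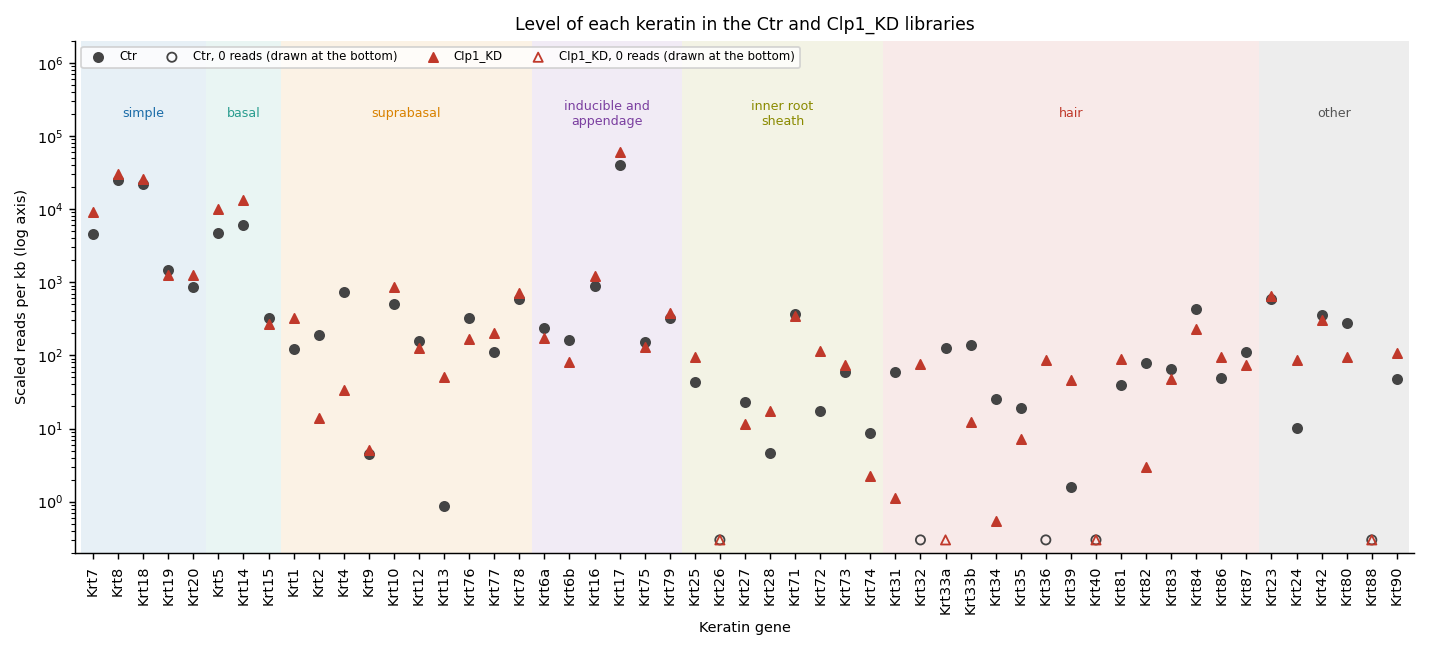
Level of each of the 53 keratins, in scaled reads per kb of transcript on a log axis, in the Ctr (circles) and Clp1_KD (triangles) libraries, ordered by class, with open symbols at the bottom for 0 reads. The 6 keratins with most reads lie far above the rest in both libraries, and wide gaps are seen in Krt4, Krt2, Krt13, Krt82 and most type I hair keratins.

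Of the 50 keratins with at least 10 reads, 14 (28%) were called 2-fold higher and 12 (24%) 2-fold lower in Clp1_KD, where 21.9% of all 18543 genes with 10 reads were called higher and 19.7% lower. The shares were near those of all genes. The median log2 ratio of the 50 was 0.22, beside 0.03 over all genes, and it was -0.0295 where the libraries were scaled so that the 14 epithelial genes had a median of 0. Of the 31 with at most 5% of their windows elsewhere in the genome, 10 were called higher and 6 lower. The size of the difference went with the number of reads as it did in other genes: 5 of 20 keratins with at least 1000 reads were called (25.0%, all genes 21.1%), 13 of 21 with 100 to 999 reads (61.9%, all genes 51.5%) and 8 of 9 with 10 to 99 reads (88.9%, all genes 73.1%). Type I keratins summed to 110153 scaled reads in Ctr and 160532 in Clp1_KD, and type II keratins to 72893 and 98825.

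**Figure D2:**
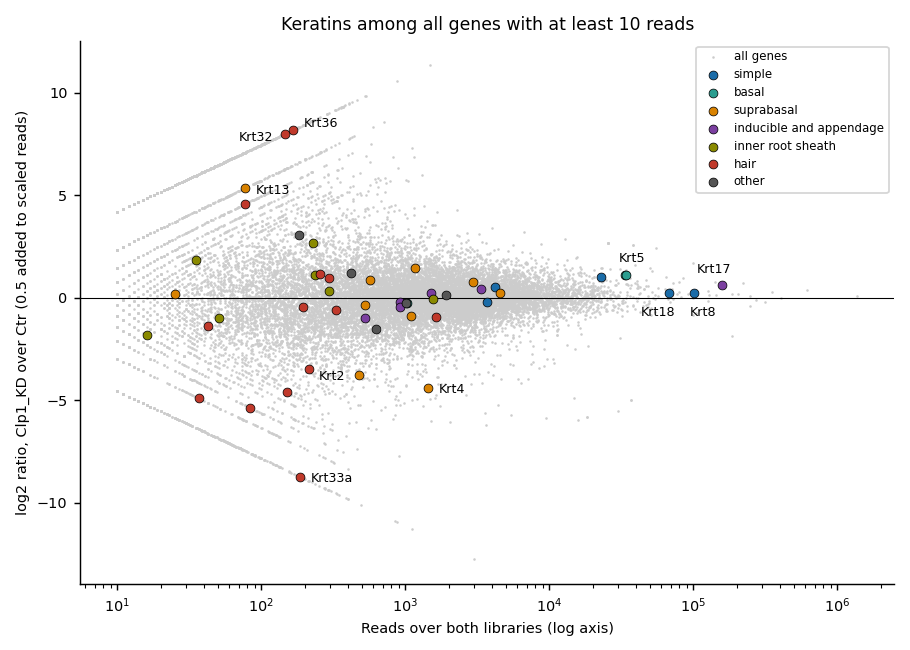
log2 ratio of Clp1_KD over Ctr, with 0.5 added to scaled reads, against the reads over both libraries on a log axis, for all genes with at least 10 reads (grey) and for keratins coloured by class. The keratins with most reads lie near 0 or up to about 1, whereas the widest ratios, such as those of Krt33a, Krt32 and Krt36, belong to keratins with few reads.

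Of the simple keratins, Krt7 was called and the other members stayed within 2-fold. Krt8, the type II keratin of simple epithelia, had 39326 reads in Ctr and 61135 in Clp1_KD, a log2 ratio of 0.26 (0.24 to 0.28). Its partner Krt18 had 26847 and 41395 reads, a ratio of 0.25 (0.22 to 0.27), so that the level per kb of Krt8 over that of Krt18 was 1.14 in Ctr and 1.15 in Clp1_KD. Krt7, a type II keratin of ducts and glands, had 6278 and 16482 reads and was 2.02-fold higher (log2 1.01, 0.97 to 1.06). Its ratio sat at the threshold: the call was lost with scaling by library totals and with the deeper library thinned. Krt20, a keratin of the gut lining, had 1464 and 2759 reads (0.54, 0.44 to 0.63), and Krt19, found in simple and transitional epithelia, had 1754 and 1952 (-0.22, -0.32 to -0.13). The class had 1 of 5 members called higher, none lower, and a median log2 ratio of 0.26, which was 0.0075 with the epithelial scaling.

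Of the basal keratins, the pair Krt5 and Krt14 was higher in Clp1_KD by nearly the same factor and Krt15 was not. Krt5 had 8922 reads in Ctr and 25255 in Clp1_KD, which is 2.18-fold higher (log2 1.12, 1.09 to 1.16). Krt14 had 8918 and 24801 reads, which is 2.14-fold higher (1.10, 1.06 to 1.13). The level per kb of Krt5 over Krt14 was 0.758 in Ctr and 0.772 in Clp1_KD. Krt15, the type I keratin of basal cells without an exclusive partner, had 494 and 531 reads (-0.27, -0.45 to -0.09). With 2 of 3 members called higher the class median was 1.10. The calls of Krt5, Krt14 and Krt7 were lost with the epithelial scaling, under which the class median was 0.85.

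Suprabasal keratins went in opposite directions, and the mucosal pair did so within itself. Krt4 had 1364 reads in Ctr and 83 in Clp1_KD, which is 21.4-fold lower (log2 -4.42, -4.75 to -4.10). Krt13, its type I partner, had 1 read in Ctr and 76 in Clp1_KD (5.87, 3.35 to 11.19). Thus Krt4 was the keratin with the 10th highest level per kb in Ctr and was almost without its usual partner there, while in Clp1_KD both were low. Krt2, a late differentiation keratin of epidermis, had 435 and 41 reads, which is 13.8-fold lower (-3.79, -4.28 to -3.32). Of the epidermal pair, Krt1 had 259 and 910 reads (1.43, 1.23 to 1.64) and was called higher, and Krt10 had 914 and 2026 (0.77, 0.66 to 0.88) and was not called. Krt77, a further type II epidermal keratin, had 167 and 401 reads (0.89, 0.62 to 1.15).

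The other suprabasal members were not called. Krt76, the keratin of the hard palate, had 649 reads in Ctr and 448 in Clp1_KD (log2 -0.91, -1.09 to -0.74). Krt78 had 1794 and 2776 reads (0.25, 0.17 to 0.34), and 17.2% of its windows were found elsewhere in the genome. Krt12, the keratin of corneal epithelium, had 257 and 265 reads (-0.33, -0.59 to -0.08). Krt9, the keratin of palm and sole, had between 10 and 15 reads. Over the 10 members 2 were called higher and 2 lower, the median log2 ratio was 0.22 (-0.0257 with the epithelial scaling), and the range ran from -4.41 to 5.36 with 0.5 added to scaled reads.

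Krt17, the keratin with the highest level in both libraries, is induced in wounded and activated epidermis and expressed in appendages. It had 52832 reads in Ctr and 104590 in Clp1_KD (log2 0.61, 0.59 to 0.62) and made up 32.9% and 35.4% of keratin reads. It was not called, but with the GC trend of the ratios subtracted its log2 ratio was 1.08 and it was called higher. Krt16, likewise induced in stressed epidermis, had 1212 and 2143 reads (0.44, 0.34 to 0.55). The type II counterparts had ratios below 0, with 475 and 446 reads for Krt6a (-0.47, -0.66 to -0.28) and 318 and 205 for Krt6b (-1.01, -1.27 to -0.75). Krt6b alone of this class was called, at the threshold, and lost the call with the deeper library thinned and with a GC trend subtracted. Krt75, a keratin of the hair follicle companion layer, had 439 and 488 reads (-0.23, -0.41 to -0.04), and Krt79, a keratin of the follicle opening, had 597 and 919 (0.24, 0.09 to 0.39). The 6 genes had a median log2 ratio of 0.01 (-0.24 with the epithelial scaling).

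The inner root sheath keratins, which line the growing hair, had few reads apart from Krt71. Krt71 had 690 reads in Ctr and 860 in Clp1_KD (log2 -0.06, -0.21 to 0.09), an interval that held 0. Krt72, which the mm9 annotation names a pseudogene, had 24 and 204 reads and was 6.54-fold higher (2.71, 2.10 to 3.38). Krt25 had 62 and 176 reads (1.13, 0.70 to 1.57) and Krt73 had 112 and 183 (0.33, -0.02 to 0.68). The other members lay at the edge of detection: Krt27 had 31 and 20 reads (-1.01, -1.90 to -0.15), Krt28 between 6 and 29, and Krt74 between 4 and 12. No read fell on Krt26 in either library, which allows up to 3.42 scaled reads in Ctr and 2.63 in Clp1_KD. Of the 7 members with 10 reads, 3 were called higher (Krt25, Krt28 and Krt72) and 2 lower (Krt27 and Krt74). Their reads were few apart from Krt71. Among all genes, 73.1% with 10 to 99 reads and 51.5% with 100 to 999 reads were called in either direction. The class median was 0.33, and 0.0781 with the epithelial scaling, under which the call of Krt25 was lost. The call of Krt27 was lost with thinning and with the GC trend subtracted.

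**Figure D3:**
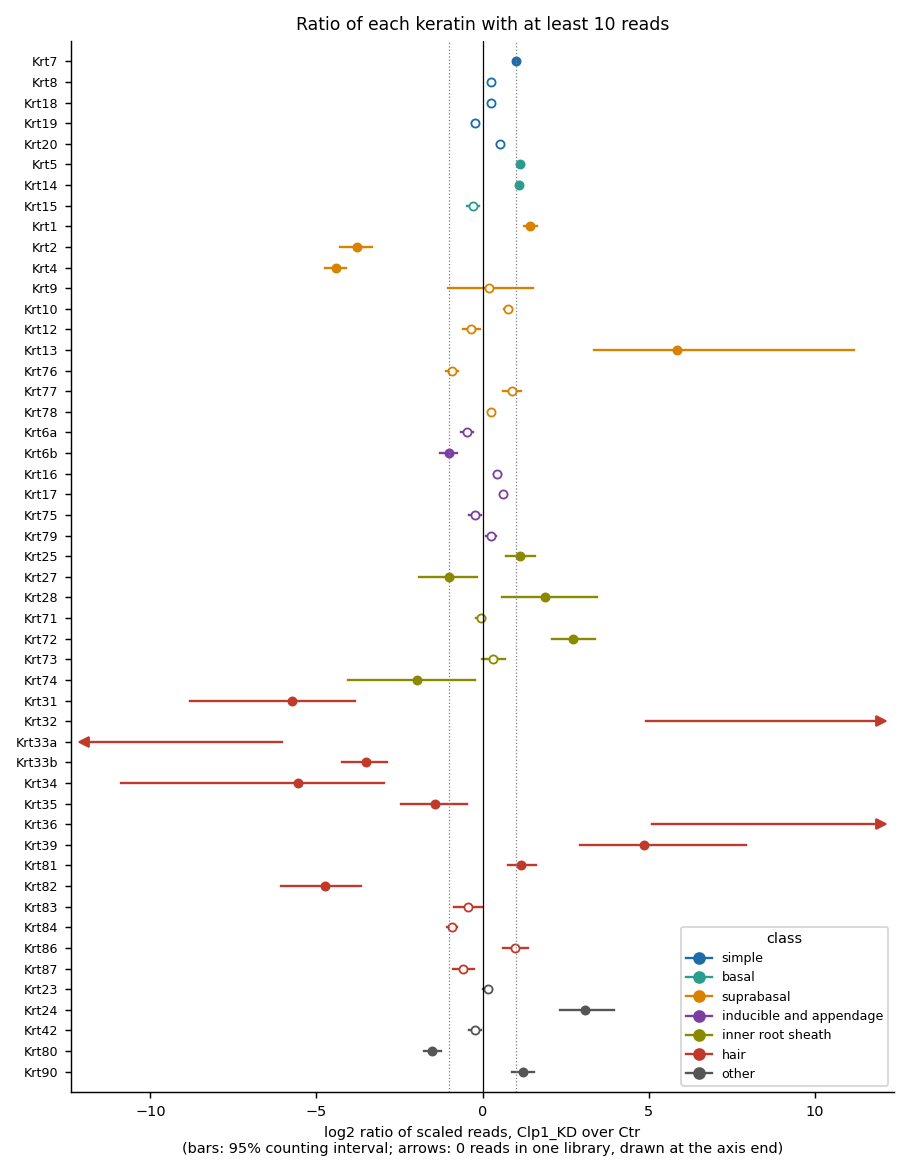
log2 ratio of scaled reads, Clp1_KD over Ctr, of the 50 keratins with at least 10 reads, coloured by class. Points are ratios (filled where called 2-fold), bars are exact 95% intervals from counting error, dotted lines mark a 2-fold difference and arrows at the axis ends mark genes with 0 reads in a library. Krt8 and Krt18 lie near 0, Krt5 and Krt14 lie together just past 1, and the hair keratins span the widest range on both sides.

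The hair keratins had the largest median absolute log2 ratio of the classes (4.03), and the type I members were called in both directions. Krt33a had 187 reads in Ctr and 0 in Clp1_KD, which is at least 81.0-fold lower against a floor of 3 reads in Clp1_KD. Krt33b, which has an identical stretch of 114 bases with it, had 193 and 22 reads, which is 11.4-fold lower (log2 -3.51, -4.22 to -2.87). Krt31 had 82 and 2 reads (-5.74, -8.81 to -3.84). These are keratins of the hair cortex. Krt34 had between 1 and 36 reads and Krt35 between 14 and 29, and both were called lower.

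In the opposite direction went Krt32, Krt36 and Krt39. Krt32, a keratin of the hair cuticle, had 0 reads in Ctr and 147 in Clp1_KD, at least 37.7-fold higher, taking 3 reads in Ctr as the floor. Krt36, the keratin of nail and tongue papillae, had 0 and 165 reads, at least 42.3-fold higher. Krt39 had 2 and 75 reads (log2 4.85, 2.95 to 7.92). Krt40 had 0 reads in both libraries. All 8 type I hair keratins with 10 reads were called, 3 higher and 5 lower. Their reads were few, and among all genes 73.1% with 10 to 99 reads and 51.5% with 100 to 999 reads were called in either direction. Krt33b, the member with most reads, made up 0.120% of keratin reads in Ctr.

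Of the 6 type II hair keratins 1 was called higher and 1 lower. Krt84, a keratin of tongue and nail, had the most reads, 972 in Ctr and 669 in Clp1_KD (log2 -0.92, -1.06 to -0.77). Krt82, a cuticle keratin, had 143 and 7 reads and was 26.6-fold lower (-4.73, -6.07 to -3.65). Krt81 had 65 and 190 reads (1.17, 0.76 to 1.60) and Krt86 had 83 and 213 (0.98, 0.61 to 1.36), which share 539 exonic windows of 50 bases. Krt81 was called higher, a call lost with the epithelial scaling, and Krt86 fell just short of 2-fold. Krt87 had 177 and 154 reads (-0.58, -0.90 to -0.26) and Krt83 had 99 and 95 (-0.44, -0.86 to -0.02). Over all 14 hair keratins with 10 reads, 4 were called higher and 6 lower, the median log2 ratio was -0.75 and their summed reads went from 2358 to 1538 scaled reads.

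Keratins outside these classes were mixed. Krt23, of simple and glandular epithelia, had 784 reads in Ctr and 1131 in Clp1_KD (log2 0.15, 0.02 to 0.28). Krt80 had 427 and 195 reads and was 2.85-fold lower (-1.51, -1.76 to -1.26). Krt42 had 481 and 533 reads (-0.23, -0.41 to -0.05). Krt24 had 15 and 167 reads and was 8.56-fold higher (3.10, 2.33 to 3.97), and Krt90 had 104 and 315 and was 2.33-fold higher (1.22, 0.90 to 1.55), a call lost with the epithelial scaling. Krt88 had 0 reads in both libraries.

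Along the chromosomes, calls in opposite directions stood next to each other. The 26 keratins of chromosome 11, all type I and all on the minus strand, span chr11:99141273-100131185 (mm9), and the 27 of chromosome 15 span chr15:101177875-101862457, with Krt18 the type I member among them. On chromosome 11, Krt33a, Krt33b, Krt34 and Krt31 follow each other and were all called lower. They had 26.3% to 36.3% of their windows in other keratins, this run among them, so their counts may not be independent. The next gene after Krt31 is Krt32, called higher, followed by Krt35, called lower, and by Krt36 and Krt13, called higher. On chromosome 15 the neighbours Krt2 and Krt1 were called in opposite directions, and Krt8 and Krt18 at the end of the cluster had ratios that differed by 0.01. Chromosome 11 had 8 of its 26 members called higher and 6 lower, and chromosome 15 had 6 and 6 of 27, members without reads included. Of all genes with 10 reads, 21.9% were called higher and 19.7% lower. In either direction, 73.1% of all genes with 10 to 99 reads and 51.5% with 100 to 999 reads were called. Whether neighbouring keratins differed in direction more often than other genes was not tested.

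**Figure D4:**
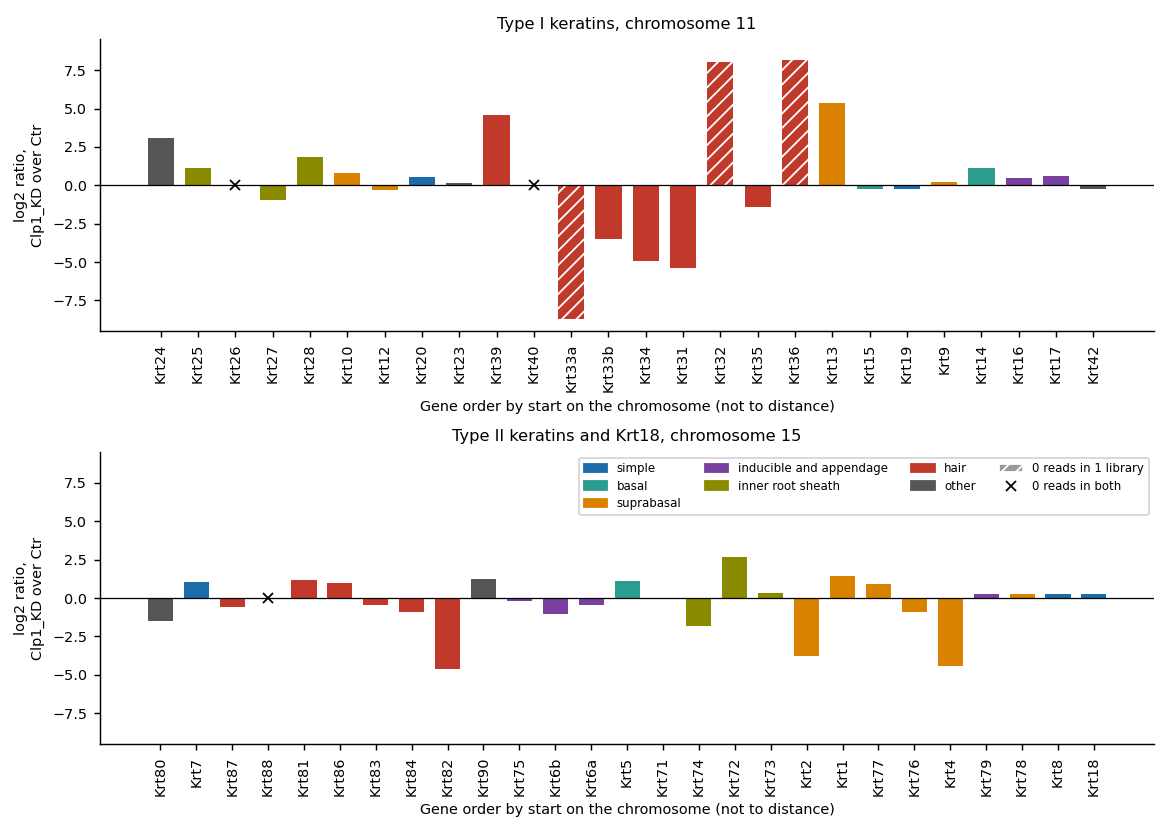
log2 ratio of Clp1_KD over Ctr, with 0.5 added to scaled reads, of each keratin in the order of its start on chromosome 11 (top) and chromosome 15 (bottom), coloured by class. Hatched bars have 0 reads in a library, so their height depends on the added 0.5, and crosses mark 0 reads in both. Krt33a, Krt33b, Krt34 and Krt31 form a run of lower genes that ends at Krt32, and on chromosome 15 Krt82, Krt2 and Krt4 reach farthest below 0.

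The deposited reads per transcript part allowed each ratio to be taken from the last exon and from the earlier exons. This took a length for both parts and at least 50 reads over them in each library, which 32 keratins met and Krt77 did not. Over these 32, the log2 read density of the last exon over that of the earlier exons had a median of 0.46 in Ctr and 0.52 in Clp1_KD. Over all 12385 such genes it was 0.51 and 0.57. The keratins with most reads gave like ratios from both parts: Krt5 1.25 and 1.04, Krt14 1.25 and 1.06, Krt17 0.63 and 0.60, Krt18 0.30 and 0.24. Several sparser keratins did not. The following were chosen after their values were seen, as those whose last-exon and earlier-exon log2 ratios differed by over 0.9. The last exon of Krt1 had 214 reads in Ctr and 449 in Clp1_KD, its earlier exons 44 and 444. The last exon of Krt4 had 486 and 60 reads, the earlier exons 841 and 20, so the gene was lower by either part. The last exon of Krt42 had 105 and 41 reads, the earlier exons 376 and 492. Krt16 likewise had 164 and 141 reads over the last exon and 1043 and 1995 over the earlier exons. The last exon of Krt79 had 390 and 453 reads, the earlier exons 207 and 459. Krt6a gave a log2 ratio of -1.54 from the last exon and -0.13 from the earlier exons, Krt6b -1.65 and -0.67, and Krt87 -1.18 and -0.28. Both parts gave ratios of the same sign in 26 of the 32 keratins, beside 9857 of all 12385 such genes. The exceptions were Krt16, Krt79, Krt42, Krt71, Krt23 and Krt75.

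**Figure D5:**
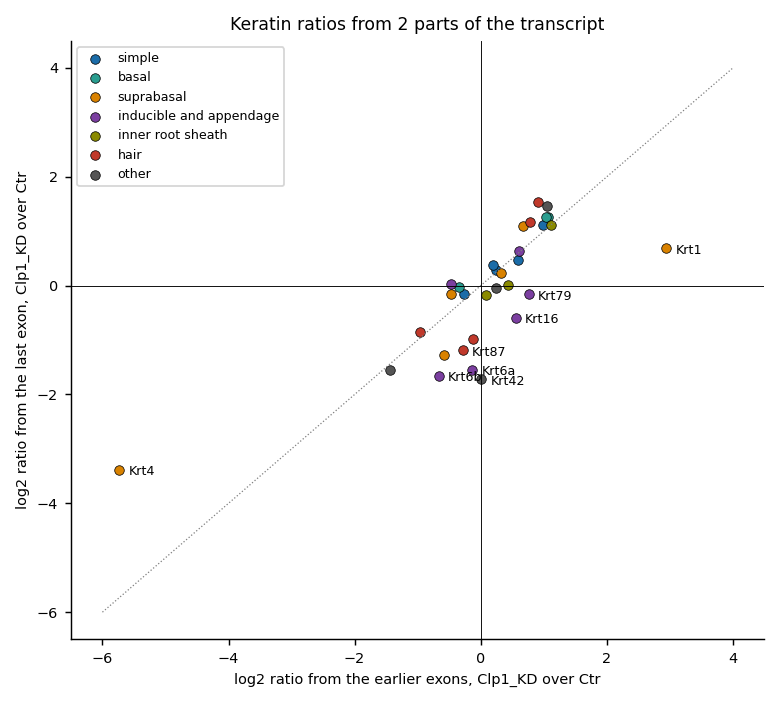
log2 ratio of Clp1_KD over Ctr from the last exon against that from the earlier exons, for the 32 keratins with at least 50 reads over both parts in each library, coloured by class, with a dotted line of equality. Krt5, Krt14, Krt7, Krt8, Krt17 and Krt18 lie close to the line, and Krt1, Krt4, Krt42, Krt6a, Krt6b, Krt16, Krt79 and Krt87 lie away from it.

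Since Clp1 acts at poly(A) sites, the d3'UTR ratio was also taken, the read density past the most proximal annotated poly(A) site over the density of the last exon before it. Only Krt20 and Krt17 had an annotated distal part of at least 50 bp and 10 reads in the last exon of each library. Krt20, with a distal part of 312 bp, is shown with the 30 bases before its proximal and its distal end (mm9, minus strand, capitals mark the poly(A) signal).
Krt20 proximal at chr11:99290029-99290058: caaagagcaAATAAAccgctctcctttggg
Krt20 distal at chr11:99289717-99289746: tgcttaaccATTAAAggtggctttatttgg

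Krt20 had 256 distal and 286 upstream reads in Ctr and 471 and 511 in Clp1_KD, d3'UTR ratios of 1.04 and 1.08. The log2 change was 0.04 with an exact conditional interval of -0.27 to 0.35. A difference was not detectable at this depth. Krt17, with a distal part of 52 bp that holds few whole reads, had 13 and 46 distal reads beside 8991 and 18097 upstream reads, a log2 change of 0.78 (-0.10 to 1.83). Both intervals held 0. The median change was 0.02 over the 5258 genes with such parts.

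Genes that work with keratins were read from lists. Of 21 keratin network partners, the linkers that tie filaments to desmosomes and hemidesmosomes and their regulators, 6 were called higher and 1 lower, with a median log2 ratio of 0.12. The list counts here and in what follows stand beside 21.9% of all genes called higher and 19.7% called lower. Those farthest from 0 were Evpl (envoplakin), with 3 and 204 reads (5.71, 4.14 to 8.0), Pof1b with 139 and 761 (2.07, 1.81 to 2.35) and Pnn (pinin) with 895 and 2764 (1.25, 1.14 to 1.36). Tchp (trichoplein, a keratin filament binding protein) was lower, with 378 and 238 reads (-1.05, -1.29 to -0.81). Of 22 transcription factors of keratin genes, 21 had 10 reads, 7 were called higher and 3 lower, and the median was 0.52. Trp63, the master regulator of stratified epithelia and of Krt5 and Krt14, had 1930 and 6029 reads (1.26, 1.19 to 1.34), Ehf 1249 and 6209 (1.94, 1.85 to 2.02) and Zfp750, an epidermal differentiation factor, 435 and 1995 (1.82, 1.67 to 1.97). The 3 lower genes were Lef1 with 776 and 322 reads (-1.65, -1.84 to -1.46), Cebpa with 1045 and 565 (-1.27, -1.42 to -1.12) and Dlx3 with 450 and 239 (-1.29, -1.52 to -1.06). Lef1 is also expressed by thymocytes, whose marker list was lower in Clp1_KD, and whether this bears on its ratio was not tested.

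Of 16 partners of the cornified envelope and of hair, 15 had 10 reads, and 8 were called higher and 3 lower, with a median log2 ratio of 1.09. Ivl (involucrin) had 15 and 1283 reads (6.04, 5.31 to 6.88), Lor (loricrin) 154 and 1144 (2.51, 2.27 to 2.77) and Tchh (trichohyalin) 223 and 1281 (2.14, 1.94 to 2.36). Padi3, which citrullinates trichohyalin, had 43 and 0 reads, at least 18.6-fold lower, Tgm5 333 and 130 (-1.74, -2.04 to -1.44) and Klk5 371 and 211 (-1.19, -1.44 to -0.94). Other intermediate filament genes had 3 of 16 called higher and 5 lower, with a median of -0.13. Bfsp1 of the lens had 44 and 270 reads, Nefl (neurofilament light) 106 and 467 and Sync 121 and 520, all called higher. Gfap of astrocytes had 253 and 0 reads, Ina 58 and 0 and Nes (nestin) 160 and 20, all called lower. Vim, the filament of mesenchymal cells, had 6472 and 7478 reads (-0.17, -0.22 to -0.12).

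Keratin-associated proteins, which embed the filaments of hair, were nearly silent, with 9 of 53 genes reaching 10 reads. All 9 were called, 3 higher and 6 lower, with a median log2 ratio of -2.78, or -2.60 with genes at 0 reads set at their floor. Of all genes with 10 to 99 reads, the depth of most of these, 73.1% were called in either direction. Krtap9-5 had 98 and 0 reads, Krtap8-1 76 and 0 and Krtap3-3 70 and 1. In the other direction Krtap6-1 had 2 and 43 reads, Krtap5-3 0 and 21 and Krtap9-3 2 and 31.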

How the data were processed

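Total RNA of sorted mTEChi (CD45 negative, MHC class II high, Ly51 low or intermediate) was made into libraries by the authors with a low-input template-switching kit and transposase fragmentation, and was sequenced single-end at 50 bp. Per the labels and the study's methods, reads were aligned to mm9 with Bowtie 1.0.0 and counted with bedtools. The deposited values used here are raw counts of reads that lie fully within the exons of 30794 RefSeq transcripts, and raw counts over parts of 27567 transcripts with their lengths. Use of strand and treatment of reads with several positions are not given in the sources used here, and the study's methods state removal of duplicate reads for a comparison of tissues, not for these libraries. The authors' table of their own comparison (normalized means, fold changes and p-values) was not used.

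Symbols came from a RefSeq table (30216 transcripts matched), positions from GENCODE vM1 on NCBIM37 and promoters from a RefSeq table of GRCm38.p6. The transcript with most reads stood for each gene. Counts were divided by median-of-ratios size factors (0.877 for Ctr, 1.14 for Clp1_KD). Intervals (95%) are exact, by Clopper-Pearson on the part of a gene's reads that Clp1_KD holds, and for single PCR-amplified libraries they cover counting error only. A gene with 0 reads in a library was set against a floor of 3 reads there. Medians used 0.5 added to scaled reads. No test was possible with 1 library per group. Keratins with at least 50 reads are named with their counts, others with the range of their counts. From each partner list up to 3 called genes per direction are named, those whose interval bound lies farthest from 0. Keratin members, classes and lists were chosen with earlier results of these data known. Computation used Python 3.11.15, scipy 1.17.1, R 4.3.3 and edgeR 4.0.16 (TMM factors only). The code for the interval was run on simulated Poisson counts. These hold counting error only, so that run does not show how well the interval covers differences in real libraries.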

Additional observations from a re-analysis of the deposited data

How the results depend on the processing

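With edgeR TMM factors, with a minimum of 1 read and with every transcript counted, 14 keratins were called higher and 12 lower, as before. The median log2 ratio of keratins was 0.22 in each of these settings, 0.22 with a pseudocount of 1 and 0.20 with 5. A minimum of 50 reads called 13 higher and 9 lower. It gave a keratin median of 0.25 and a hair median of -0.51 in place of -0.75. All 45 keratins with at least 50 reads kept their sign with TMM factors, library totals, thinning and both pseudocounts. Scaling so that the epithelial genes had a median of 0 lowers every log2 ratio by 0.25. It called 8 keratins higher in place of 14 (and 14 lower in place of 12), turned the median of keratins to -0.0295, and gave class medians of 0.0075 (simple), 0.85 (basal), -0.24 (inducible and appendage) and -0.998 (hair), with 42 of 45 signs kept. Subtracting the trend of ratio on GC content gave a keratin median of 0.46 and class medians of 0.63, 1.52, 0.32 and -0.34 in the same order, with 39 of 45 signs kept, and it called 17 higher and 9 lower. Among keratins with at least 50 reads it gained Krt17, Krt77 and Krt86 as higher and lost Krt6b and Krt27 as lower. No called keratin turned its direction under any of these scalings, thinning or pseudocounts. Thinning the deeper library gave 14 higher and 10 lower. Library totals gave 0.24 for the simple class. A fold of 4 called 6 higher and 7 lower, since fewer genes pass it. With 1 transcript per gene in the denominator the keratin share was 0.798% in Ctr and 1.11% in Clp1_KD, since other transcripts leave the total. The cause of the other shifts was not tested. With genes at 0 reads set at their floor the median of the 50 keratins stayed 0.22. Counts of 20 reads or fewer in a library limit the ratios of the sparse hair and root sheath keratins, and no setting replaces a replicate.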
